A study of Arabidopsis thaliana with 9 samples.

Results

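The genes of the auxin response described here were chosen by gene symbol: the transcription factor gene LBD16, 3 GH3 genes (GH3.1, GH3.3 and GH3.5) and 5 Aux/IAA genes (IAA18, IAA29, IAA30, IAA31 and IAA34). Each was read by the 1 probe set that names only it, and all 9 of 9 were found among 16550 genes with such a probe set. GH3.5 (AT4G27260) stands in the array annotation under its other name, WES1. The 9 samples were cultured Arabidopsis thaliana Col-0 cotyledons, from seedlings 6 days old. VISUAL-CC is a culture method that leads mesophyll of the cotyledon toward vascular fates, ending with the companion cells of the phloem. The 3 groups of 3 were CC-S, CC-M and VISUAL. Companion cell differentiation was strongly induced in CC-S, moderately in CC-M and not in VISUAL. By their titles the CC-S and CC-M samples were VISUAL-CC cultures, whereas the titles of the VISUAL samples name VISUAL alone. Per the labels' protocols, all had 48 hours on VISUAL medium, with the synthetic auxin 2,4-D at 1.25 mg per litre, the cytokinin kinetin at 0.25 mg per litre and the GSK3 inhibitor bikinin at 10 µM. They were collected 96 hours after induction. The labels word the second medium alike for all 9 samples, and the sources used here do not give the groups' auxin supply after transfer. No label says that the 3 samples of a group were separate cultures, and the spread behind each p-value is therefore that between these 9 samples, possibly a technical one.

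Auxin acts by removing repressors. It holds Aux/IAA proteins to an F-box receptor, they are degraded, and ARF transcription factors are then free to switch on target genes. The targets include most Aux/IAA genes, several GH3 genes and LBD16. The enzymes of those GH3 genes join auxin to amino acids and so lower the free hormone. LBD16 acts in lateral root initiation and in the formation of callus on auxin-rich medium. IAA30, IAA31 and IAA34 belong to the Aux/IAA proteins that lack the usual form of the degradation signal, whereas IAA18 and IAA29 carry it.

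All values are log2 signals of one-colour arrays as the authors deposited them, and a change is a difference of mean log2 signals, the group named first minus the other. A call is an adjusted p under 0.05 in limma's moderated test, with Benjamini-Hochberg adjustment across the whole table of 38408 probe sets. Of these, 20927 carry no gene name in the annotation used. A gene counts as measured here if a probe set names only it, so other listed genes may still be on the array. Array medians ran from 4.71 to 4.90, and the number of arrays limits the precision. By limma's quality weights the arrays that fitted their groups least were CC-S replicate 5 (weight 0.698) and VISUAL replicate 3 (0.699). Of 8 genes listed for companion cells, 1 had a probe set naming only it, SWEET13. Its linear signal was 6.21 to 8.04 in CC-S, 5.68 to 7.57 in CC-M and 5.17 to 9.64 in VISUAL. Its changes were not called. SWEET13 was dim, with 18.4% of probe sets at or below its mean, so the lack of a call says little about companion cells. How far SWEET13 marks companion cells was not tested. The sucrose transporter gene SUC2 and the other listed companion cell genes were not analysed here. Among them, the name SAPL matched no gene in the gene table, so no probe set was sought for it. The samples are bulk tissue, so a change in the number of cells of a type and a change in RNA per cell cannot be told apart.

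Between CC-S and VISUAL, the genes that rose were LBD16, 10.3-fold, and GH3.5, 5.73-fold. GH3.1 and IAA30 fell, by 1.16 and 1.82 on the log2 scale. The other 5 genes (GH3.3, IAA18, IAA29, IAA31 and IAA34) were not called. Thus 4 of 9 were called, 2 in each direction, beside a called share of 19.2% among all probe sets (10.1% up, 9.07% down). The median size of change was 0.73 for the 9 genes and 0.24 for all probe sets. Between CC-M and VISUAL, 3 of 9 were called, LBD16 and GH3.5 higher and IAA30 lower, against 11.6% of all probe sets (6.49% up, 5.15% down), and the median size was 0.40 against 0.20. Both comparisons use the same 3 VISUAL samples. The 9 genes were chosen with earlier results of these data known, so larger shares and sizes than among all probe sets may come from that choice. Between CC-S and CC-M, 0 of 9 were called by limma, against 0.0208% of all probe sets (0.00781% up, 0.013% down). At an unadjusted limma p under 0.05 there were 2 of 9 (LBD16 and IAA29). The share of all probe sets at that unadjusted level was not counted, so the 2 cannot be set against it.

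**Figure D1:**
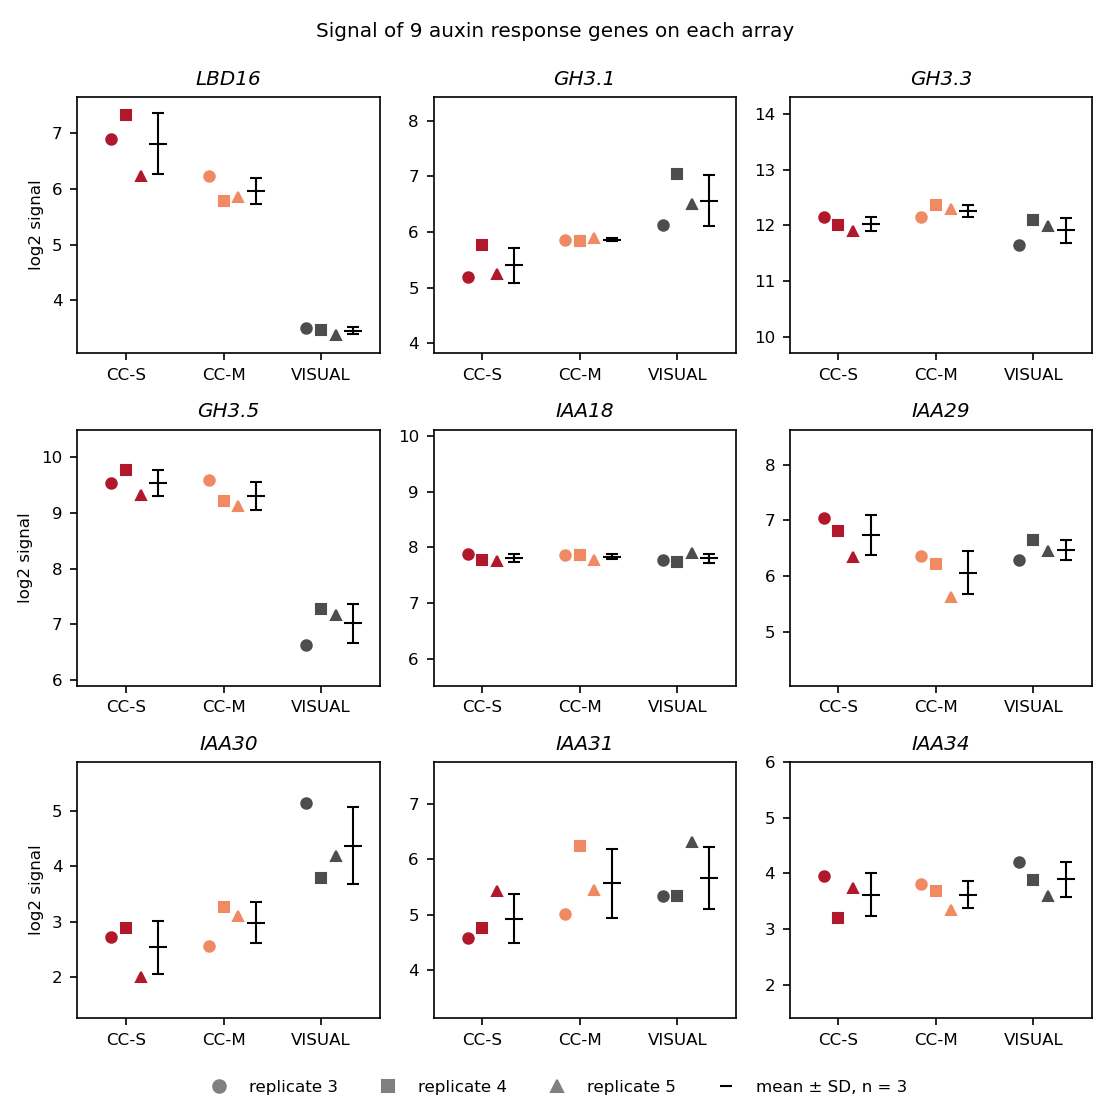
Log2 signal of each gene on each array, by group (CC-S, CC-M, VISUAL), with the mean and SD of 3 arrays beside the points; every panel spans the same number of log2 units. LBD16 and GH3.5 lie far above VISUAL in both induced groups, GH3.1 and IAA30 lie below it, and IAA18 stays between 7.74 and 7.89 on every array.

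LBD16 (AT2G42430) encodes an LBD-family transcription factor induced through ARF7 and ARF19. Its log2 signals were 6.89, 7.32 and 6.23 in the CC-S samples, 6.24, 5.79 and 5.86 in the CC-M samples, and 3.5, 3.46 and 3.38 in the VISUAL samples. Every induced sample lay above every VISUAL sample, and the VISUAL values were close together, whereas CC-S replicate 5 lay just below the highest CC-M sample. The means were 6.81 ± 0.55 in CC-S, 5.96 ± 0.24 in CC-M and 3.45 ± 0.06 in VISUAL (SD, n = 3 each). The VISUAL mean was dim for this array, with 30.7% of probe sets at or below it, against 72.8% in CC-S and 63.2% in CC-M.

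The rise of LBD16 was 3.37 on the log2 scale in CC-S (95% interval 2.79 to 3.94, limma adjusted p = 8.3e-05), or 10.3-fold (6.93 to 15.4). It ranked 37 among the rises of all 38408 probe sets. In CC-M the rise was 2.52 (1.94 to 3.09, limma adjusted p = 0.000584), or 5.72-fold, at rank 64. CC-S exceeded CC-M by 0.85 (0.28 to 1.42), which was not called over all probe sets (limma adjusted p = 0.191). Without CC-S replicate 5 that difference was 1.14 and was called (limma adjusted p = 0.0475), and the rise over VISUAL was 3.66. In none of the other 15 settings was CC-S called above CC-M.

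The other LBD genes with a probe set of their own, 2 measured of 43 listed names, were not called. The names LBD6 and LBD34 matched no gene in the gene table. LBD29, which acts with LBD16 in callus formation and lateral root initiation, had log2 signals of 2.43 to 3.09 in CC-S, 2.19 to 2.67 in CC-M and 2.50 to 2.64 in VISUAL, and changes of 0.13 in CC-S and -0.08 in CC-M. LOB, the founding member of the family, changed by -0.13 and -0.04. The 95% interval for LBD29 in CC-S starts at -0.35. PUCHI, an AP2-type factor of early lateral root primordia, was at 2.54 ± 0.11 in CC-S, 2.52 ± 0.12 in CC-M and 2.63 ± 0.27 in VISUAL (SD, n = 3 each). It was likewise dim, with 15.6% of probe sets at or below its mean. The lateral root and callus markers LBD29 and PUCHI, 2 measured of 9 listed, had a summed linear signal of 10.8 to 14.8 in CC-S, 9.77 to 12.4 in CC-M and 11.5 to 13.8 in VISUAL.

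Of the 3 GH3 genes, 1 rose and 1 fell in CC-S against VISUAL. GH3.5 (AT4G27260), whose enzyme conjugates auxin and also salicylic acid, had log2 signals of 9.54, 9.77 and 9.32 in CC-S, 9.60, 9.21 and 9.12 in CC-M, and 6.63, 7.27 and 7.17 in VISUAL. The induced groups overlapped each other and stood clear of VISUAL. The rise was 2.52 in CC-S (95% interval 2.07 to 2.97, limma adjusted p = 9.95e-05) and 2.29 in CC-M (1.84 to 2.74, limma adjusted p = 0.00031), or 5.73-fold and 4.88-fold. The ranks among all rises were 124 and 90. CC-S differed from CC-M by 0.23, with an interval of -0.22 to 0.68, so CC-S is bounded between 0.861 and 1.61 times CC-M.

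GH3.1 (AT2G14960), another auxin-conjugating enzyme gene, was lower in the induced groups. Its log2 signals were 5.20, 5.76 and 5.24 in CC-S, 5.86, 5.83 and 5.89 in CC-M, and 6.13, 7.05 and 6.50 in VISUAL, so that none of the 3 groups overlapped. It fell by 1.16 in CC-S (95% interval -1.69 to -0.63, limma adjusted p = 0.00879), which was 2.23-fold lower. In CC-M the change was -0.70 (-1.23 to -0.17) and was not called (limma adjusted p = 0.0978). That call appeared when VISUAL replicate 3, the lowest VISUAL value, was left out (-0.91, limma adjusted p = 0.0429), whereas without VISUAL replicate 4, the highest, the change was -0.45 (limma adjusted p = 0.198). CC-S differed from CC-M by -0.46 (-0.99 to 0.07, limma adjusted p = 0.47).

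GH3.3 (AT2G23170) was among the brightest genes of the array, with 99.6% of probe sets at or below its mean. Its log2 signals were 12.15, 12.01 and 11.90 in CC-S, 12.15, 12.36 and 12.29 in CC-M, and 11.65, 12.09 and 11.98 in VISUAL. CC-S and VISUAL overlapped, while every CC-M sample lay above every VISUAL sample. The changes were 0.11 in CC-S (95% interval -0.15 to 0.38, limma adjusted p = 0.593) and 0.36 in CC-M (0.09 to 0.62, limma adjusted p = 0.0928). The CC-M change was called without VISUAL replicate 4 (0.45, limma adjusted p = 0.0482), and it was 0.23 without VISUAL replicate 3 (limma adjusted p = 0.199). The intervals bound the signal of GH3.3 to at most 1.30-fold higher in CC-S and 1.54-fold higher in CC-M. These lie below the lower bounds of 4.2-fold and 3.57-fold for GH3.5. Whether so bright a signal follows the RNA amount in full was not tested.

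Of the other GH3 genes, 3 of 17 listed names were measured, and GH3.9 rose. Several of the 17, such as GH3.7 and GH3.10, matched no gene in the gene table, so no probe set was sought for them. GH3.9 had log2 signals of 4.58, 4.72 and 4.56 in CC-S, 3.96, 4.35 and 4.11 in CC-M, and 3.52, 3.51 and 3.67 in VISUAL, with no overlap between any groups. The rise was 1.06 in CC-S (limma adjusted p = 0.0011) and 0.58 in CC-M (limma adjusted p = 0.0302). The CC-M call of GH3.9 ended in 7 of 16 other settings (adjusted p up to 0.104), among them without CC-M replicate 4 or 5 and without VISUAL replicate 3, 4 or 5. GH3.17, which conjugates auxin to glutamate, had changes of -0.63 in CC-S and 0.15 in CC-M, neither called; it was called in CC-S without CC-S replicate 5 (-0.81, limma adjusted p = 0.038). GH3.4 had changes of -0.10 and 0.07 at a signal of 2.77 in CC-S. How far the probes of these related genes read each other was not analysed here.

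**Figure D2:**
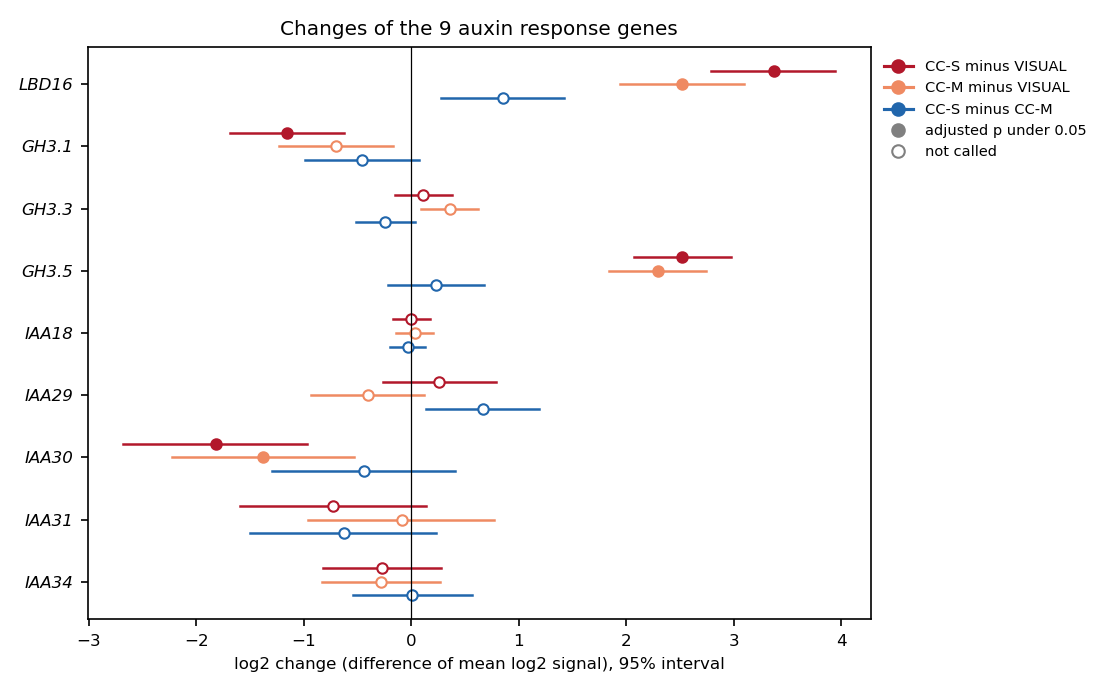
Log2 change of each gene in the 3 comparisons, with its 95% interval from the limma fit; filled points passed an adjusted p under 0.05. The GH3 genes spread from -1.16 to 2.52 in CC-S against VISUAL, 4 of the 5 IAA genes have intervals that include 0 there, and no filled point belongs to CC-S against CC-M.

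Among the 5 Aux/IAA genes, IAA30 fell and the rest were not called in any comparison. IAA30 (AT3G62100) had log2 signals of 2.73, 2.89 and 2.01 in CC-S, 2.57, 3.27 and 3.11 in CC-M, and 5.13, 3.79 and 4.18 in VISUAL. All induced samples lay below all VISUAL samples, and the VISUAL samples spread widely (SD 0.69). IAA30 fell by 1.82 in CC-S (95% interval -2.68 to -0.97, limma adjusted p = 0.00965), 3.54-fold lower, and by 1.38 in CC-M (-2.23 to -0.53, limma adjusted p = 0.0478), 2.6-fold lower. The signal was low, with 15.4% of probe sets at or below the CC-S mean and 44.9% at or below the VISUAL mean. The table carries no detection call, and whether the induced samples were above background is unknown.

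The 2 calls of IAA30 differed in how they held. The fall in CC-S stayed called in all 15 other settings that could be fitted (limma adjusted p up to 0.0296). The fall in CC-M lost its call in 10 of 15, with limma adjusted p up to 0.15. These were the settings without CC-M replicate 3, 4 or 5, without VISUAL replicate 3 or 5, without CC-S replicate 3 or 4, with no intensity trend, with only 2 groups, and with a block for replicate number (0.077). Without VISUAL replicate 3, the highest value, the change was -1.44 in CC-S and -1.0 in CC-M. CC-S and CC-M overlapped and differed by -0.44 (-1.30 to 0.41).

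IAA31 (AT3G17600), like IAA30 a repressor without the usual degradation signal, had log2 signals of 4.59, 4.77 and 5.43 in CC-S, 5.02, 6.24 and 5.44 in CC-M, and 5.34, 5.34 and 6.30 in VISUAL. The groups overlapped. Its change was -0.73 in CC-S with an interval of -1.59 to 0.14 (limma adjusted p = 0.25), and -0.09 in CC-M (-0.96 to 0.77). Without VISUAL replicate 5, the highest VISUAL value, the CC-S change was -0.41. It varied more within groups than most probe sets, with 90.4% of them at or below its pooled SD of 0.55. IAA34 (AT1G15050), also without that signal, was at 3.62 ± 0.39 in CC-S, 3.62 ± 0.24 in CC-M and 3.89 ± 0.31 in VISUAL (SD, n = 3 each), with changes of -0.27 and -0.28. With 1 array left out these ran from -0.43 to -0.06 in CC-S and from -0.43 to -0.12 in CC-M. Its interval reaches from -0.82 to 0.28 in CC-S, so a fall in signal of the size of IAA30's lies outside it. IAA34 was dim, with 34.4% of probe sets at or below its mean, so a fall in RNA might show only in part.

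IAA29 (AT4G32280), a repressor gene known for its induction in shade, was not called in any comparison, and its widest difference was between the induced groups. Its log2 signals were 7.04, 6.80 and 6.34 in CC-S, 6.36, 6.21 and 5.62 in CC-M, and 6.29, 6.65 and 6.45 in VISUAL. CC-S stood 0.67 above CC-M (95% interval 0.14 to 1.19, limma unadjusted p = 0.0189), which was not called over all probe sets (limma adjusted p = 0.27). The lowest CC-S sample was just below the highest CC-M sample. The changes against VISUAL were 0.26 in CC-S and -0.40 in CC-M, neither called. With 1 array left out they ran from 0.10 (without CC-S replicate 3) to 0.46 (without CC-S replicate 5) in CC-S, and from -0.55 to -0.18 (without CC-M replicate 5) in CC-M.

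IAA18 (AT1G51950) varied little. All 9 arrays lay between 7.74 and 7.89, with a pooled SD of 0.07, and only 3.78% of probe sets varied as little or less within groups. The change was 0.03 in CC-M against VISUAL, and the 95% interval for CC-S against VISUAL ran from -0.17 to 0.17. That bounds IAA18 to between 0.889 and 1.12 times its VISUAL level in CC-S, and between 0.911 and 1.15 times in CC-M.

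The other Aux/IAA genes measured, 3 of 24 listed, were IAA15, IAA20 and IAA33, and 0 of 3 were called by limma in any comparison (0 of 3 also at an unadjusted p under 0.05). IAA20, a close relative of IAA30, was at 1.94 ± 0.36 in CC-S, 1.92 ± 0.41 in CC-M and 1.87 ± 0.20 in VISUAL (SD, n = 3 each). Its change in CC-S was 0.07, with a lower bound of -0.51. With only 6.51% of probe sets at or below its mean, IAA20 was so dim that a fall might not be seen.

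In the order of the group means, LBD16 and GH3.5 ran from CC-S through CC-M to VISUAL, and GH3.1, IAA30 and IAA31 ran the opposite way. The means of GH3.3 were highest in CC-M, and those of IAA29 were lowest in CC-M. The step between CC-S and CC-M was not called for any of the 9 genes over all 9 arrays. Of the change of the CC-S mean from VISUAL, the CC-M mean held 74.7% for LBD16, 90.7% for GH3.5, 60.3% for GH3.1 and 75.7% for IAA30. The values of CC-S and CC-M did not overlap for 1 of the 9 genes, GH3.1, where 18.1% of all probe sets were so separated. For CC-S and VISUAL this held for 4 of 9 against 32.6%, and for CC-M and VISUAL for 5 of 9 against 27.6%.

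**Figure D3:**
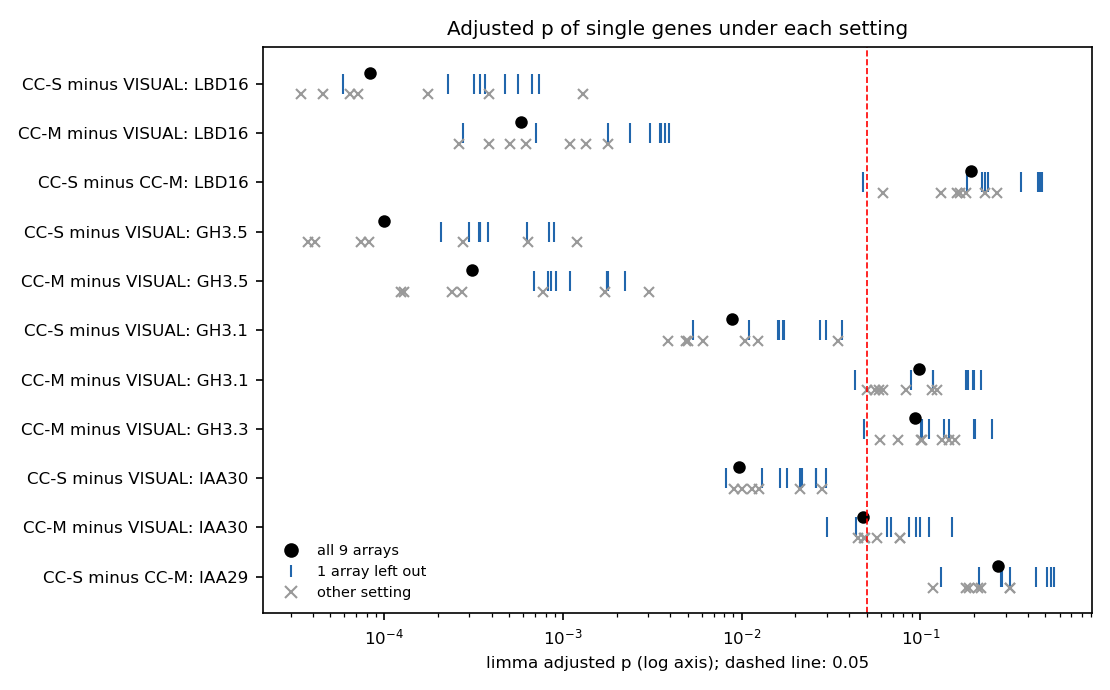
Limma adjusted p of single genes with all 9 arrays (black), with 1 array left out (blue bars) and under the other settings (grey crosses), on a log axis with the dashed line at 0.05. LBD16 and GH3.5 stay left of the line against VISUAL in both induced groups, as do GH3.1 and IAA30 in CC-S, while IAA30 in CC-M lies on both sides.

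Further genes of the auxin pathway were taken from lists with 308 entries, from synthesis to targets, of which 18 had a probe set naming only them. The 18 do not stand for the whole pathway, and the lists were chosen with earlier results of these data known. Receptor genes, ARF genes and SAUR genes had 0 members with a probe set matched to them and were not analysed here. Some listed names, such as ARF1, ARF3, TPR1, TPR2 and TPR4, were matched to loci of other gene families that share the name. The intended genes behind these names were not looked up. Other listed names, such as ASK1, GH3.7, GH3.10, DAO1, LBD6 and PLT5, matched no gene in the gene table. No probe set was sought for them, so their genes may be on the array. Such names still count among the 308, and some may be second names of genes listed already. In CC-S against VISUAL 2 of 18 rose and 3 fell, and in CC-M against VISUAL 2 rose and 3 fell, a called share of 27.8% in each, beside 19.2% of all probe sets in CC-S and 11.6% in CC-M. The median changes were -0.11 and -0.06 (all probe sets 0.017 and 0.016). The CC-M count was 1 without CC-M replicate 4, 2 without CC-M replicate 5 or VISUAL replicate 3 or 5, and 3 without CC-M replicate 3 or VISUAL replicate 4. Between CC-S and CC-M 0 of 18 were called by limma after adjustment, and 4 had an unadjusted p under 0.05 (GH3.9, GH3.17, UGT74D1 and EXPA4). How many of all probe sets reach that unadjusted level was not counted.

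Of the synthesis genes 4 of 23 were measured, all YUCCA genes, whose enzymes make indole-3-acetic acid. YUC6 fell by 0.81 in CC-S (limma adjusted p = 0.0113) and by 0.69 in CC-M (limma adjusted p = 0.036), with means of 3.11 ± 0.19 in CC-S, 3.23 ± 0.03 in CC-M and 3.92 ± 0.28 in VISUAL (SD, n = 3 each). YUC2, YUC4 and YUC11 changed by 0.05, -0.23 and -0.02 in CC-S and were not called. The 1 measured gene of the transport list, WAG2, a kinase gene that steers PIN auxin carriers, fell by 0.87 in CC-S (limma adjusted p = 0.0417) and by 1.07 in CC-M (limma adjusted p = 0.0273). The CC-M call of YUC6 ended in 8 of 15 settings, among them any 1 CC-M array left out, VISUAL replicate 3 or 4, and CC-S replicate 4 (adjusted p up to 0.106). WAG2 lost its CC-S call in 8 settings, those with only 2 groups and without any 1 CC-S array, CC-M replicate 3 or 4, or VISUAL replicate 4 or 5 (up to 0.119). It lost its CC-M call in 4, with only 2 groups and without CC-M replicate 3 or 4 or VISUAL replicate 5 (up to 0.0938).

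Among conjugation and target genes, UGT74D1, a glucosyltransferase gene active on auxin, fell by 0.47 in CC-S (limma adjusted p = 0.00585) and changed by -0.23 in CC-M. HAT2, an HD-Zip factor gene known for early auxin induction, rose by 0.47 in CC-S (limma adjusted p = 0.00436) and by 0.43 in CC-M (limma adjusted p = 0.011), at a bright signal of 11.72 in CC-S, 11.69 in CC-M and 11.26 in VISUAL. The expansin gene EXPA4 had its lowest mean in CC-M. Its log2 signals were 6.64, 6.19 and 5.34 in CC-S, 5.18, 4.30 and 4.62 in CC-M, and 6.39, 6.02 and 6.47 in VISUAL. EXPA4 fell by 1.60 in CC-M (limma adjusted p = 0.018), a call that ended without CC-M replicate 4 or 5 or VISUAL replicate 3 or 5 (up to 0.0682). In CC-S it changed by -0.24. The difference of 1.36 between CC-S and CC-M had a limma adjusted p of 0.132 and was called without CC-S replicate 5 (1.71, limma adjusted p = 0.0475) and with arrays weighted by quality (1.51, limma adjusted p = 0.0445).

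**Figure D4:**
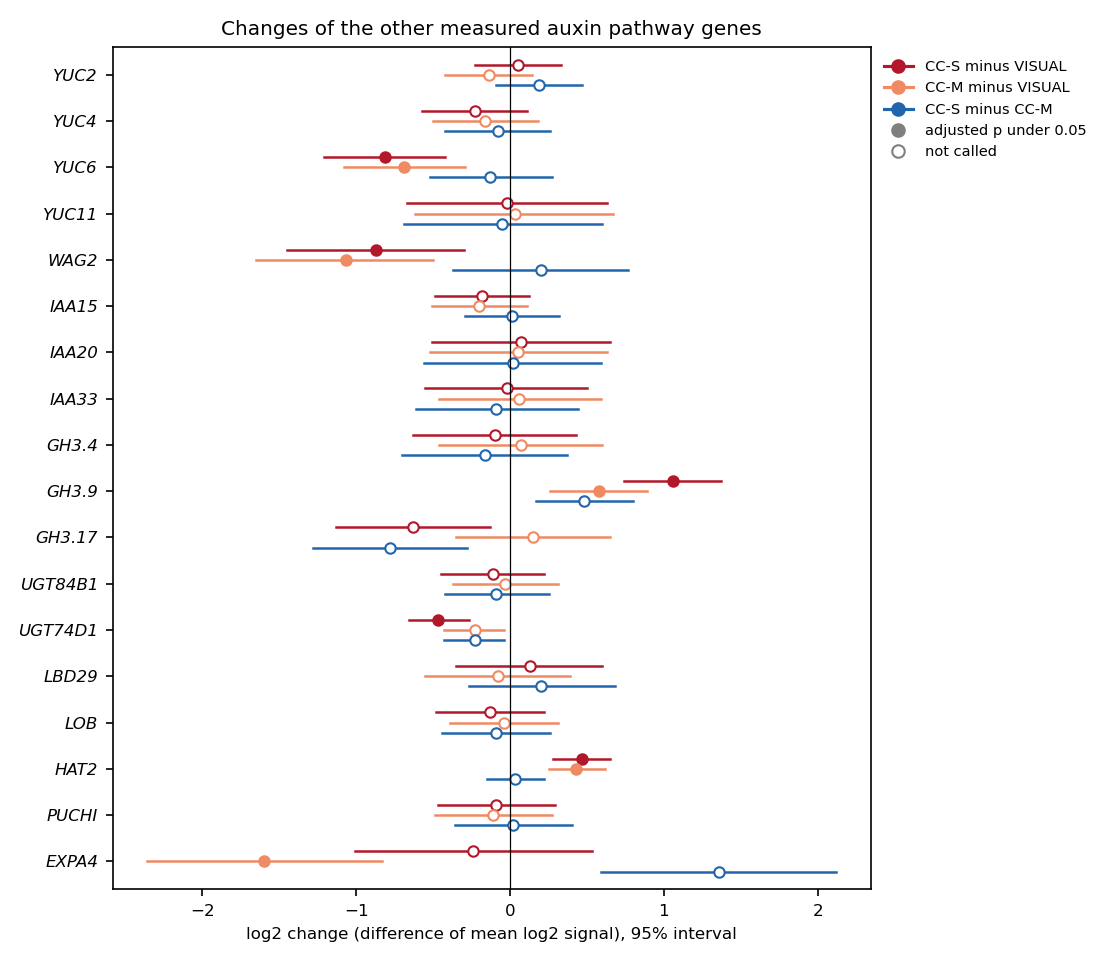
Log2 change of the 18 other measured auxin pathway genes in the 3 comparisons, with 95% intervals from the limma fit; filled points passed an adjusted p under 0.05. YUC6 and WAG2 lie below 0 and GH3.9 and HAT2 above 0 in both induced groups, and EXPA4 is far below 0 in CC-M.

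Some markers of other cell types also changed, while others were not called. The xylan synthesis genes IRX15 and IRX10, of 3 measured of 10 xylem genes, fell in CC-S, by 1.91 and 1.03, and in CC-M, by 1.51 and 0.89. The summed linear signal of the 3 was 996 to 1641 in CC-S, 1002 to 1754 in CC-M and 2062 to 2969 in VISUAL. Of 4 measured of 8 genes listed for procambium, MOL1, a receptor-like kinase gene, and LHW, a bHLH factor gene, rose in CC-S, by 0.62 and 0.50. In CC-M against VISUAL MOL1 changed by 0.19 and LHW by 0.10, and with all 9 arrays 0 of the 4 were called. The 4 summed to 892 to 1046 in CC-S, 807 to 987 in CC-M and 516 to 718 in VISUAL. They include CLE41 and CLE44, peptide genes of the phloem that signal to the procambium, so the sum does not mark procambium alone. The CC-S mean log2 signals were 7.64 for CLE41, 8.67 for CLE44, 8.42 for LHW and 4.21 for MOL1. The 4 measured photosynthesis genes, of 7, summed to 1949 to 2059 in CC-S, 2252 to 2402 in CC-M and 1803 to 2390 in VISUAL, with a median change of -0.02 in CC-S and 0.19 in CC-M. Of these LHCB4.2 rose by 0.60 in CC-S (limma adjusted p = 0.0466), a call that ended in 12 of 16 settings, 8 of them with 1 array left out (each array but VISUAL replicate 3; up to 0.133). The others were not called in CC-S, with changes of 0.19 for RCA, -0.24 for LHCB4.1 and -0.23 for PSAE-1, and leaving out VISUAL replicate 5 gave LHCB4.1 a call on the low side (-0.41, limma adjusted p = 0.0275). The 3 measured guard cell genes, of 5, summed to 167 to 187 in CC-S, 183 to 232 in CC-M and 198 to 254 in VISUAL, with 0 called by limma in CC-S or CC-M against VISUAL (at an unadjusted p under 0.05, 2 in CC-S and 0 in CC-M). These 2 had opposite signs in CC-S, -0.46 for FAMA and 0.35 for SPCH, and the share of all probe sets at that unadjusted level was not counted. FAMA was called in 6 of 16 other settings: with quantile normalization, with median centring, without the dimmest 40% of probe sets, with a block for replicate number (limma adjusted p = 0.00758), and without CC-M replicate 3 or VISUAL replicate 3. The part of these cell types in the changes of the auxin response genes was not tested. The calls of IRX10 ended without CC-S replicate 4 in CC-S (0.0528) and without CC-M replicate 3 or 4 or VISUAL replicate 3 or 5 in CC-M (up to 0.116), where it also ended with no intensity trend. That of LHW ended when 1 of these arrays was left out (CC-S replicate 3 or 4, CC-M replicate 4, VISUAL replicate 4 or 5; up to 0.11). IRX15 lost its CC-M call without CC-M replicate 3 or 4 or VISUAL replicate 3 (up to 0.0967). Calls were gained in CC-S by IRX15-L, the third xylem gene, with a replicate block (-0.88) and without CC-S replicate 5 (-1.19), by CLE41 without VISUAL replicate 5 (0.86) or the dimmest 40% (0.61), and by CLE44 without VISUAL replicate 4 (1.01). In CC-M they were gained by CLE41 without VISUAL replicate 5 (0.80), RCA with a replicate block (0.26) and LHCB4.2 without VISUAL replicate 3 (0.70).

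The profiles most like those of 3 members were sought among 1799 genes with a symbol and a probe set of their own, by Pearson's r over the 9 arrays, as a description. The 9 arrays fall into 3 groups, so a high r mainly marks a like order of the groups. For LBD16 these were CHLM, a methyltransferase gene of chlorophyll synthesis (r = 0.991), SETH2 (r = 0.991), ATB2 (r = 0.987) and FBL17, an F-box gene of the cell cycle (r = 0.984). Their changes in CC-S were smaller than that of LBD16, from 0.70 for SETH2 to 1.31 for FBL17. For GH3.5 they were PYK10, a beta-glucosidase gene of endoplasmic reticulum bodies (r = 0.991), HL (r = 0.989), ADCL (r = 0.987) and TRM28 (r = 0.982), with changes in CC-S of 2.24 for HL, 0.77 for ADCL and 2.09 for TRM28; PYK10 averaged 12.15 in CC-S and 9.02 in VISUAL. For IAA30 they were NRPB6B (r = 0.964), SHN2 (r = 0.958), NRPB3 (r = 0.949) and IQD31 (r = 0.945). Their changes in CC-S were small, between -0.53 for IQD31 and -0.22 for NRPB6B.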

How the data were processed

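The authors' deposited table holds log2 signals of 38408 probe sets on 9 arrays; all columns were used as deposited. Among tools, the notes of the submitters on processing list Affymetrix Expression Console; the sources used here do not give its version, the summary method or a build, so no coordinates are printed. Probe sets were named through the platform annotation, updated by gene number from a gene table of assembly TAIR10.1 (16574 of 16722 single-gene probe sets matched). Samples were grouped by their labels. All 9 arrays entered 1 fit with a mean per group in limma 3.58.1 and R 4.3.3 (lmFit, eBayes with an intensity trend, 2-sided, 6 residual degrees of freedom). The fit was tested on simulated data; after a first version missed its pass mark for recovered changes, the simulated spread was set to the fit's own estimate and the pass mark to the size of the estimates and the share of false calls. Tables used Python 3.11.15 and pandas 2.3.3. The members and gene lists were chosen with earlier results of these data known. Named genes are the members, up to 4 called genes of each list with the smallest p (where none was called, 1), and the 4 profiles most like LBD16, GH3.5 and IAA30; other list genes were named after their values were seen. A list gene with several probe sets was read by the brightest, and 1 list entry, FDH, was left out because its symbol belongs to another gene. Other entries with a shared name, such as ARF1 and TPR1, stayed in the lists. So did names that matched no gene in the gene table, which count as listed and not measured. Alternatives were 7 other settings and each array left out in turn; the same settings were added for list genes after seeing the data. Sequences, with the planned motif and identity searches, were not analysed here.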

Additional observations from a re-analysis of the deposited data

How the results depend on the processing

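Over the 16 other settings, 401 of 426 gene-level results of the 9 members kept their direction and their side of the threshold. Direction could not change with no intensity trend, without the dimmest 40%, with only 2 groups or with the replicate block. Nor could it change when the array left out belonged to the third group. The count also includes genes not called that stayed so, and it does not measure how firm the calls are. The number of members called was 3 to 4 in CC-S against VISUAL, 2 to 4 in CC-M against VISUAL, and 0 between CC-S and CC-M, except 1 without CC-S replicate 5 (LBD16). The leave-one-out ranges were 4 to 4, 2 to 4 and 0 to 1. The replicate numbers do not pair the samples by the labels, and same-numbered arrays' deviations correlated between -0.033 and 0.121; with the number as a replicate block 4, 2 and 0 members were called, and IAA30 in CC-M had an adjusted p of 0.077. Without the dimmest 40% of probe sets IAA30 and IAA34 were not fitted. Probe sets called between CC-S and CC-M, 8 in all, were 0 with no intensity trend, 42 with quantile normalization, 38 with median centring, 310 without the dimmest 40%, 847 with arrays weighted by quality, 4 with only 2 groups, 10 with the replicate block, and 0 to 309 with an array left out. For CC-M against VISUAL leaving out an array gave 2450 to 4666 calls, against 4470. Further auxin genes called, 5 of 18 in each comparison with VISUAL, were 3 in CC-S and 3 in CC-M without the dimmest 40% and 2 in CC-M with only 2 groups; leaving out an array gave 4 to 5 in CC-S, 1 to 5 in CC-M, and 0 to 1 between CC-S and CC-M, where quality weights also gave 1. Signs turned only for values that were not called. GH3.3 in CC-S was -0.01 without VISUAL replicate 3, the low end of a leave-one-out range up to 0.21. IAA18 in CC-S was 0.00 with quantile normalization and 0.01, 0.02 and 0.05 without CC-S replicate 4, CC-S replicate 5 and VISUAL replicate 5, and in CC-M -0.04 with median centring. IAA31 in CC-M was 0.18 without CC-M replicate 3 and 0.23 without VISUAL replicate 5, in a leave-one-out range that starts at -0.43. IAA34 between CC-S and CC-M was -0.06 with quality weights and -0.16, -0.04 and -0.13 without CC-S replicate 3, CC-S replicate 5 and CC-M replicate 5, in a leave-one-out range up to 0.22. The causes were not tested. With no detection call, signal over background is unknown for dim genes such as IAA20, IAA30, IAA34, LBD29, LOB, PUCHI, SWEET13 and YUC6.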
